A study of Mus musculus with 27 samples.

Results

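The genes described here are 8 members of the neurotrophin and GDNF system: the ligands Bdnf, Ntf3 and Gdnf, the receptor tyrosine kinases Ntrk2 and Ntrk3, the p75 receptor Ngfr, and the co-receptors Sort1 and Gfra1. They were taken by symbol from a read count table of 55416 mouse genes, and each symbol matched 1 row. The table holds RNA-seq of whole brains of female fetuses from 3 strains on gestational days 12, 15 and 17 (d12, d15 and d17), counted with the day of the vaginal plug as day 1. The strains were AKR/J, C57BL/6J and B6.Cg-Cav1tm1Mls/J, called Cav1-null, a germline null for the caveolar protein gene Cav1. The 9 groups of strain and day had 3 libraries each, 27 in all, and no group received a treatment. AKR/J and C57BL/6J are separate inbred strains that differ at many loci, and the Cav1-null mice carry their allele in every tissue on a congenic B6 background. A strain difference therefore cannot be assigned to 1 locus. The study set AKR/J and Cav1-null as short-lived mice against C57BL/6J as long-lived mice, and compared the early phase, d12 to d15, with the late phase, d15 to d17. The labels do not say whether the libraries of a group came from different litters, so p-values measure the spread between these libraries.

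Neurotrophins are secreted growth factors that support the survival, differentiation and wiring of neurons. Mature neurotrophins bind Trk receptor tyrosine kinases, BDNF binding TrkB (Ntrk2) and NT-3 binding TrkC (Ntrk3), and all of them also bind the p75 receptor (Ngfr). Their uncleaved pro-forms bind p75 with high affinity together with sortilin (Sort1). GDNF belongs to another growth factor family and signals through GFRα1 (Gfra1), a membrane-anchored co-receptor that presents it to the kinase Ret.

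The libraries held 26363697 to 39759702 reads in genes, with a median of 29700746. Levels are given as CPM, the read count relative to library size, scaled between libraries by the trimmed mean of M values (TMM). Cav1 itself was at 0 to 0.503 CPM in the Cav1-null libraries and at 9.42 to 41.1 CPM in the others, as the labels say. Neuron markers such as Tubb3 and Map2 summed to 1760 CPM or more in every library. Markers of tissue outside the brain were high in some libraries. The 3 libraries of AKR/J d12 had erythroid marker sums of 101778, 34317 and 201683 CPM, where no other library passed 18214 CPM. Replicate 1 of that group also had 816 CPM of placenta and decidua markers (80.3 and 30.3 CPM in the others) and 1733 CPM of yolk sac endoderm markers (249 and 43.4 CPM). Meninges and mesenchyme markers were at 1514, 674 and 1403 CPM in AKR/J d12, against 371, 880 and 1166 CPM in C57BL/6J d12. Markers of meninges and mesenchyme reached 5219 CPM in replicate 1 of C57BL/6J d15, against 398 and 640 CPM in the other two libraries of that group. The same list stood at 1250 CPM in replicate 2 of AKR/J d15, where the others had 173 and 158 CPM, and at 1390 CPM in replicate 1 of C57BL/6J d17, where the others had 188 and 341 CPM. In whole-brain RNA, fewer cells of a type and less RNA per cell cannot be told apart. The part of these other tissues in the values below was not tested, and each value is given per library.

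**Figure D1:**
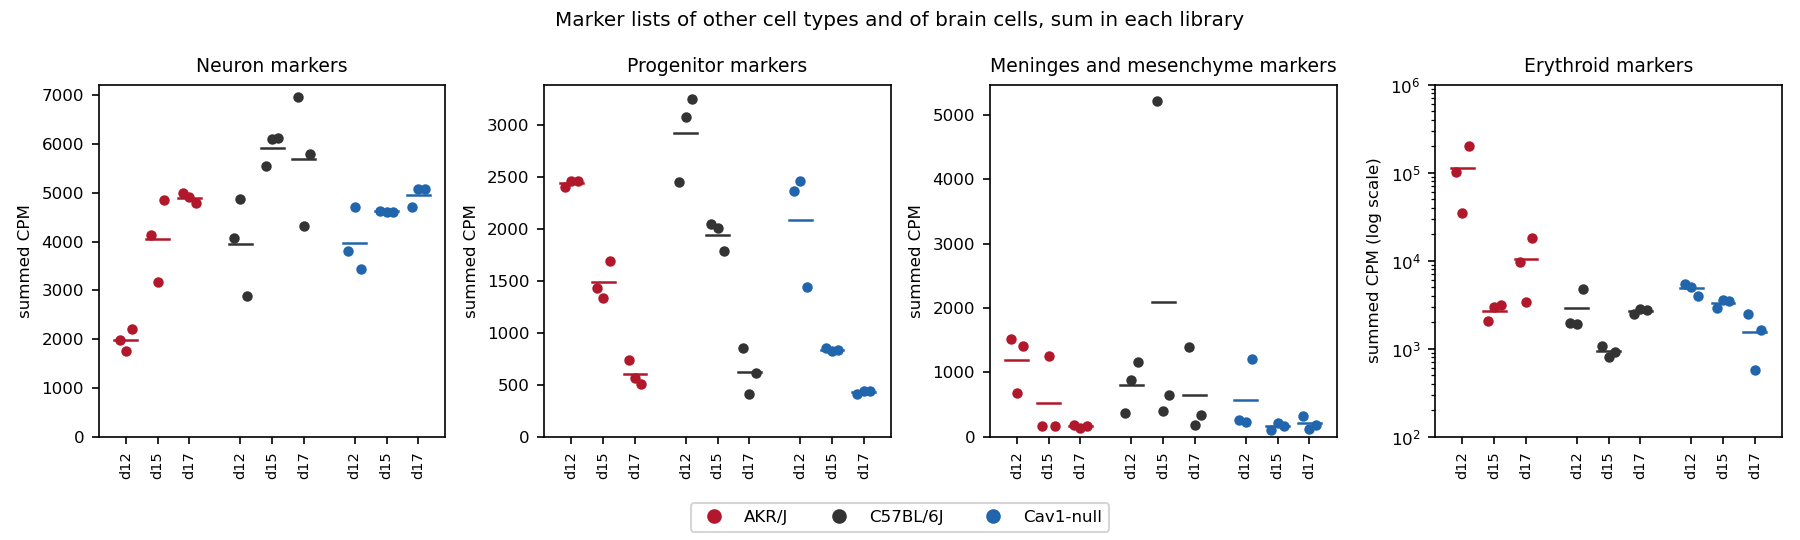
Summed CPM of lists of marker genes in each library (points, with a bar at the mean of 3), by gestational day on the x axis and coloured by strain; the erythroid panel has a log axis and the others start at 0. AKR/J d12 stands apart in erythroid markers (34317 to 201683 CPM), and replicate 1 of C57BL/6J d15 in meninges and mesenchyme markers (5219 CPM).

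Per kilobase of exon, Sort1 was the most abundant of the 8 genes with a mean of 17.5 CPM per kb over the 27 libraries. Averaged over the same libraries, the receptors followed, with Ntrk3 at 5.68, Gfra1 at 4.44, Ngfr at 4.07 and Ntrk2 at 3.96 CPM per kb. On that average the ligands were lowest, with Ntf3 at 1.35, Bdnf at 0.654 and Gdnf at 0.138 CPM per kb. The order did not hold in every group. On d17 Ntf3 had a higher mean than Ngfr in Cav1-null (2.40 ± 0.663 against 1.55 ± 0.337 CPM per kb) and in AKR/J (1.80 ± 0.373 against 1.52 ± 0.131). In AKR/J d12 Ntf3 was at 2.01 ± 1.40 CPM per kb, above the means of Ntrk2 (1.35 ± 0.446) and Ntrk3 (1.16 ± 0.496), and its spread was larger than those differences. Union exon lengths of 29.9 kb for Ntrk2 and 31.3 kb for Ntrk3 lower their values on this scale.

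**Figure D2:**
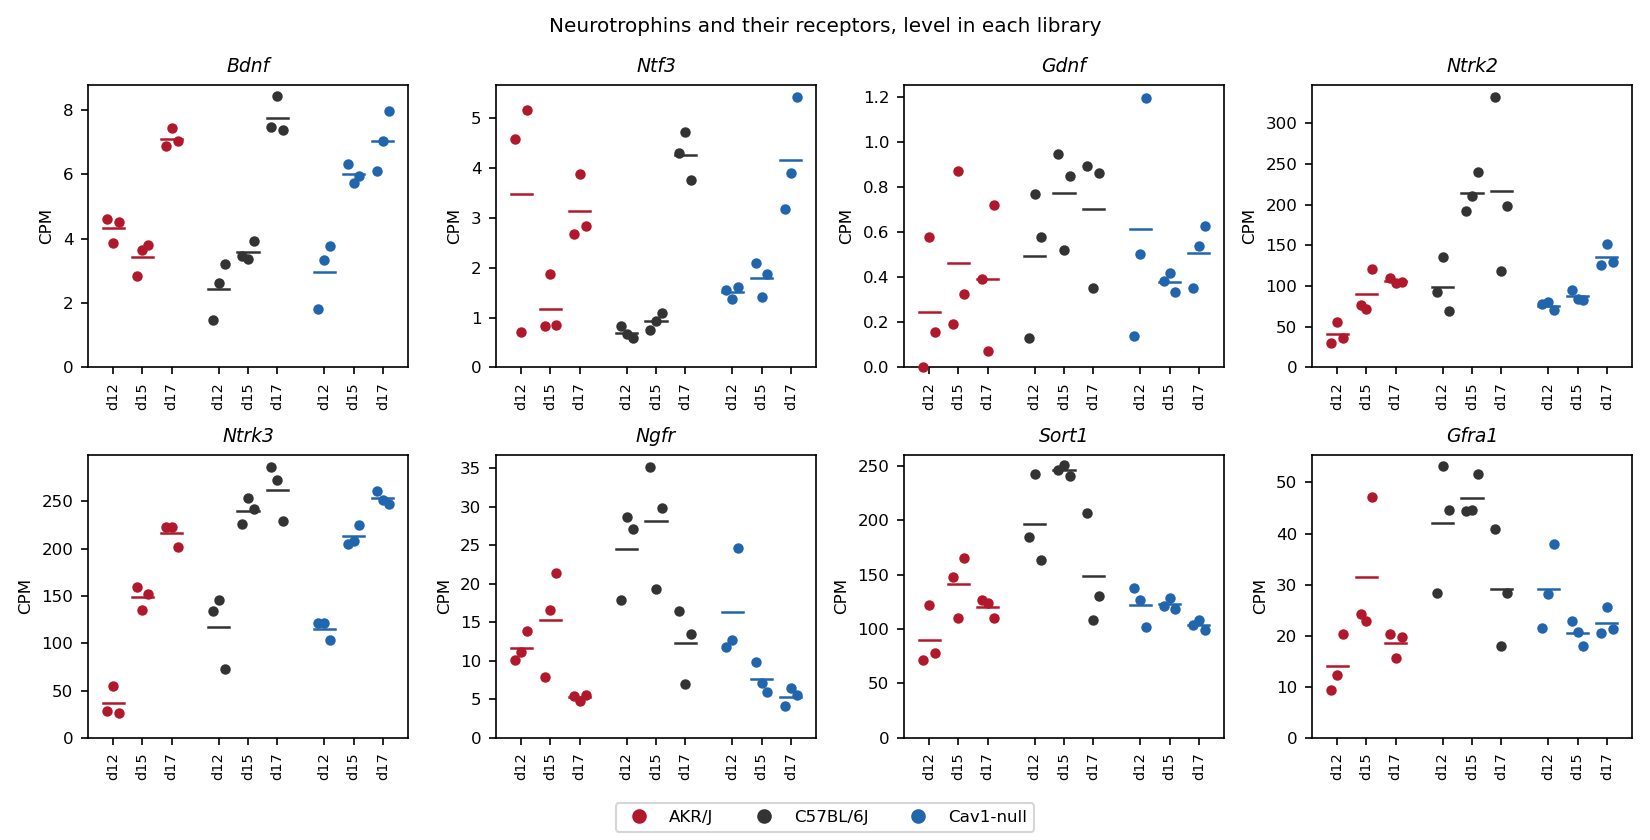
Level of each of the 8 genes in each library (points, CPM on the y axis from 0), by gestational day within strain, coloured by strain, with a bar at the mean of 3. Bdnf and Ntf3 are higher on d17 than on d15 in AKR/J and C57BL/6J, Ntrk3 is higher on d15 than on d12 in every strain, and the AKR/J and Cav1-null points of Ntrk2, Sort1 and Gfra1 lie under those of C57BL/6J on d15, except that the highest AKR/J value of Gfra1 does not.

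A gene was called changed where its Benjamini-Hochberg adjusted p (edgeR quasi-likelihood test, over all genes tested) was under 0.05. In the early phase, 3 of 7 tested genes were called in AKR/J, where 28.9% of all tested genes were, 2 of 8 in C57BL/6J (14.9% of all genes), and 3 of 8 in Cav1-null (23.4%). In the late phase the counts were 4 of 8 in AKR/J (22.1%), 2 of 8 in C57BL/6J (13.0%) and 4 of 8 in Cav1-null (27.3%). Ntrk3 rose in the early phase in all 3 strains, and Ntf3 rose in the late phase in all 3. Against C57BL/6J on the same day, 6 of 8 genes were called in AKR/J on d12 (28.6% of all genes), the group with the other-tissue markers given above, 3 of 8 on d15 (41.1%) and 0 of 8 on d17 (0.742%). For Cav1-null the counts were 0 of 8 on d12 (0.0%), 6 of 8 on d15 (58.6%) and 0 of 8 on d17 (0.0491%). All strain comparisons of a day share the C57BL/6J libraries of that day, and neighbouring day comparisons share the d15 libraries. The d15 counts stand beside a high share of calls among all genes and are not read as particular to these 8 genes.

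The counts of 0 came with some unadjusted p-values under 0.05, among the 8 genes as among all genes. On d17, 3 of the 8 genes in AKR/J and 1 in Cav1-null had an unadjusted p under 0.05. Among all genes these were 4275 of 20207 and 1538 of 20358. DESeq2 called 2 and 0 of the 8 there (5.82% and 0.2% of all genes). In Cav1-null on d12, 2 genes had an unadjusted p under 0.05 and DESeq2 called 1 (12.7% of all genes), while edgeR called 0 of 19475 genes and left 4309 with an unadjusted p under 0.05. These d17 comparisons rested on a variable C57BL/6J group. Without replicate 2 of C57BL/6J d17, edgeR called 3 of 8 genes in both comparisons, namely Ntrk2, Ngfr and Gfra1 in AKR/J and Ntrk2, Ngfr and Sort1 in Cav1-null, all lower than in C57BL/6J. In those fits 26.4% and 13.6% of all genes were called, so the counts are not read as particular to these genes.

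**Figure D3:**
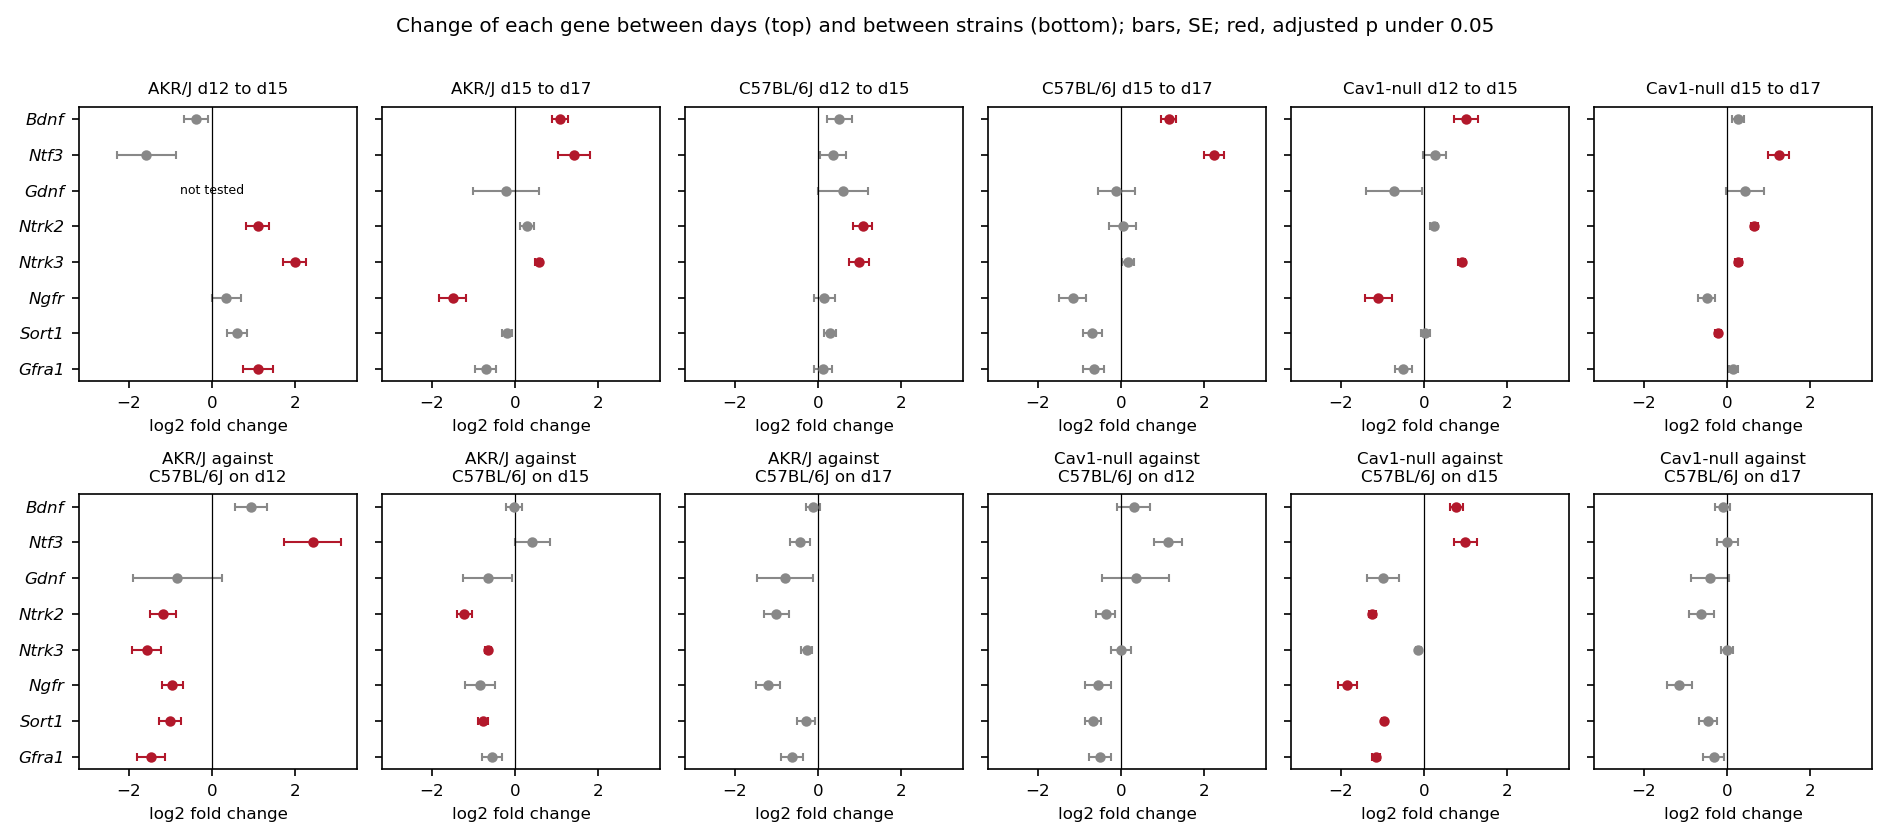
Log2 fold change (x axis) of the 8 genes (y axis) between days within a strain (top row) and of AKR/J or Cav1-null against C57BL/6J on each day (bottom row); points are estimates, bars are 1 standard error, and red marks an adjusted p under 0.05. In the bottom row the ligands Bdnf and Ntf3 lie right of 0 where they are red, and the receptors and co-receptors lie left of 0.

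Bdnf encodes brain-derived neurotrophic factor, the TrkB ligand, and lies at 2:109505045-109557475 of GRCm39 on the plus strand (ENSMUSG00000048482). In C57BL/6J it measured 1.47, 2.62 and 3.22 CPM on d12, 3.47, 3.37 and 3.92 CPM on d15, and 7.47, 8.45 and 7.36 CPM on d17. In AKR/J it measured 4.62, 3.88 and 4.50 CPM on d12, 2.83, 3.64 and 3.8 CPM on d15, and 6.87, 7.43 and 7.02 CPM on d17. In both strains every d17 library was above every earlier one. In Cav1-null the d12 libraries had 1.83, 3.33 and 3.77 CPM, those of d15 already 6.32, 5.73 and 5.95 CPM, and those of d17 6.12, 7.03 and 7.99 CPM, so that d15 and d17 overlapped. Cav1-null on d15 lay above all d12 and d15 libraries of the other strains.

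Bdnf rose 2.13-fold in AKR/J between d15 and d17 (log2 fold change 1.09 ± 0.19, SE, adjusted p = 0.00632, 3.41e-05 to 0.0424 over the alternative fits) and 2.23-fold in that of C57BL/6J (1.16 ± 0.18, adjusted p = 0.0112, alternatives 2.19e-05 to 0.0689). The C57BL/6J call was lost without replicate 1 or 2 of d15 or replicate 3 of d17. In Cav1-null the rise fell in the early phase, 2.03-fold (1.02 ± 0.29, adjusted p = 0.034, alternatives 0.000693 to 0.108), a call that ended without any one of 5 libraries (all but replicate 3 of d12) and with a replicate block (0.0547). The late change there was 0.26 ± 0.15 on the log2 scale (adjusted p = 0.225). On d12 the AKR/J difference from C57BL/6J was 0.95 ± 0.38 (adjusted p = 0.0916) and passed with all 27 libraries in 1 model (0.81, adjusted p = 0.0121). On d15 Bdnf was 1.72-fold higher in Cav1-null than in C57BL/6J (0.78 ± 0.16, adjusted p = 0.002, alternatives 0.000521 to 0.0246). The difference between these strains in the late change was -0.93 ± 0.22 (adjusted p = 0.0654, alternatives 0.0139 to 0.275). DESeq2 called it (-0.86, adjusted p = 0.0151), as did edgeR without replicate 1 of C57BL/6J d17 (-0.89, adjusted p = 0.0139). Progenitor markers such as Sox2 and Mki67 summed to 829 to 851 CPM in Cav1-null d15 and to 1784 to 2045 CPM in C57BL/6J d15, and their part in the Bdnf difference was not tested. In the 8 day and strain comparisons that did not call Bdnf, its change ran from -0.37 to 0.95.

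Bdnf is transcribed from several alternative first exons that are spliced to 1 coding exon, and the splice table held junctions of a pair of them. The first exon, commonly numbered I, was joined to the coding exon by a junction from 109505685 to 109553726. Its reads were seen in 0 of 9 d12 libraries, 2 of 9 d15 libraries and 9 of 9 d17 libraries, with 0, 4 and 48 reads in all. The downstream first exon, commonly numbered IV, was joined by a junction from 109523120 to 109553726 and was seen in 6 of 9, 7 of 9 and 9 of 9 libraries, with 21, 28 and 48 reads. At no more than 14 reads in a library, and with a 0 in this table possibly standing for removed reads, these are given as a description. The 250 bases before each of these exons are shown because the exons differed in the day on which they were seen. Capitals mark the bases CGTCA, the reverse complement of TGACG (the first bases of the cAMP response element).
Bdnf exon I promoter, chr2:109504795-109505044, plus strand: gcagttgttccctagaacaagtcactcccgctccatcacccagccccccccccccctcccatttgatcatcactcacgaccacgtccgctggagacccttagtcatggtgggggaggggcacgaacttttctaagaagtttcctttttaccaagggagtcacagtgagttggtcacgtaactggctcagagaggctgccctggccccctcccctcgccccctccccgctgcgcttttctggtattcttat
Bdnf downstream first exon promoter, chr2:109522531-109522780, plus strand: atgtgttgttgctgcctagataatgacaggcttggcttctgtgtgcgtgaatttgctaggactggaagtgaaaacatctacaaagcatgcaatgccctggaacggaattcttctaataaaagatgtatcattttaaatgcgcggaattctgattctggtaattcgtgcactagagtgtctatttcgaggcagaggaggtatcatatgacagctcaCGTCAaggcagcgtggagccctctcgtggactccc
The downstream window held TGACG once, on the minus strand 35 bases before the exon, and the exon I window held none on either strand. Of 21770 windows of the same length before protein-coding genes, 16.3% held this motif. The palindromic E-box CANNTG was found at 2 places in the exon I window and at 1 in the other, and was in 66.5% of all windows. Neither window held CACGTG (in 5.69% of all windows), neither held the full cAMP response element TGACGTCA (1.31%), and neither held the TATA box TATAAA (12.5%).

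Ntf3 encodes neurotrophin-3, the TrkC ligand, and lies at 6:126078375-126143873 on the minus strand (ENSMUSG00000049107). In C57BL/6J it stayed low with 0.833, 0.678 and 0.580 CPM on d12 and 0.758, 0.930 and 1.08 CPM on d15, and then measured 4.30, 4.74 and 3.76 CPM on d17. In Cav1-null it measured 1.55, 1.38 and 1.61 CPM on d12, 2.09, 1.42 and 1.87 CPM on d15, and 3.19, 3.90 and 5.44 CPM on d17. Both strains showed the step between d15 and d17, without overlap. AKR/J was split on d12, with 4.58 and 5.18 CPM in replicates 1 and 3 and 0.714 CPM in replicate 2, and had 0.828, 1.87 and 0.852 CPM on d15 and 2.68, 3.88 and 2.84 CPM on d17. The AKR/J d12 libraries with high Ntf3 were those with the higher erythroid sums, 101778 and 201683 CPM against 34317 CPM in replicate 2, and also with the higher sums of neural crest and Schwann cell markers, 2275 and 2756 CPM against 817 CPM.

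In the late phase Ntf3 rose 4.76-fold in C57BL/6J (log2 fold change 2.25 ± 0.25, adjusted p = 0.0051, alternatives 4.03e-10 to 0.0457). It rose 2.69-fold in AKR/J (1.43 ± 0.39, adjusted p = 0.0322, alternatives 0.00262 to 0.133) and 2.37-fold in Cav1-null (1.25 ± 0.25, adjusted p = 0.00243, alternatives 1.26e-05 to 0.13). The AKR/J call ended without any one of its libraries other than replicate 2 of d15, and the Cav1-null call ended when all 27 libraries shared 1 model (adjusted p = 0.13). No difference between strains in the size of the rise passed the interaction tests (AKR/J against C57BL/6J -0.79 ± 0.47, adjusted p = 0.729, and Cav1-null against C57BL/6J -1.03 ± 0.36, adjusted p = 0.136). Neural crest and Schwann cell markers summed to 333 to 401 CPM on d15 and 529 to 1132 CPM on d17 in C57BL/6J. In AKR/J they were at 535 to 685 and 887 to 1420 CPM, and in Cav1-null at 891 to 978 and 787 to 1112 CPM, with overlap. The part of these markers in the late Ntf3 rises and in the d15 difference given below was not tested.

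Ntf3 was 5.39-fold higher in AKR/J than in C57BL/6J on d12 (2.43 ± 0.69, adjusted p = 0.0324, alternatives 0.000364 to 0.121), with 2 of 3 AKR/J libraries above all C57BL/6J ones. The call ended without replicate 1 or 3 of AKR/J, without any one C57BL/6J library (adjusted p 0.0731 to 0.121), and with library sizes as the only scaling (0.0517). In AKR/J the early change was -1.58 ± 0.72 (adjusted p = 0.134). Without replicate 2 of AKR/J d12, the low one, it was -2.08 and passed (adjusted p = 0.0139), as it did with all 27 libraries in 1 model (-1.53, adjusted p = 0.00916), and without that library so did its difference from the C57BL/6J change (-2.51, adjusted p = 0.0116). On d15 Ntf3 was 1.99-fold higher in Cav1-null than in C57BL/6J (1.0 ± 0.28, adjusted p = 0.0113, alternatives 0.00437 to 0.11), without overlap, a call that was lost with all 27 libraries in 1 model (0.11). On d12 the same pair did not overlap either, but the difference did not pass (1.13 ± 0.33, adjusted p = 0.121). The 7 comparisons of days or strains without a call gave Ntf3 changes from -1.58 to 1.13.

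Gdnf, the glial cell line-derived neurotrophic factor (15:7840327-7867060, plus strand, ENSMUSG00000022144), was near the limit of detection, with 0 to 46 reads in a library. AKR/J d12 had 0, 0.578 and 0.155 CPM, from 0, 17 and 3 reads, and no test was made of the early phase in AKR/J because the gene did not pass the filter on low counts there. The highest value was 1.2 CPM, in replicate 3 of Cav1-null d12. On d15 the C57BL/6J libraries had 0.948, 0.523 and 0.849 CPM and those of Cav1-null 0.384, 0.419 and 0.334 CPM, which do not overlap. That difference missed the threshold (-0.99 ± 0.39, adjusted p = 0.0535, alternatives 0.0429 to 0.36) and passed without replicate 2 of C57BL/6J d15 (-1.17, adjusted p = 0.0429). In AKR/J the d15 difference was -0.65 ± 0.58 (adjusted p = 0.408) and passed without replicate 2 of AKR/J d15 (-1.54, adjusted p = 0.0498). With all libraries Gdnf was called in 0 of 11 comparisons of days or strains, with changes from -0.99 to 0.61.

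Ntrk2 encodes TrkB, the BDNF receptor (13:58954176-59281784, plus strand, ENSMUSG00000055254). Its transcripts share the exons of the extracellular part and then end in different ways. One form reads into a short terminal exon and gives TrkB-T1, a receptor without a kinase domain that is known as the main form of astrocytes. The other skips that exon, goes on through the kinase exons and gives the full-length signaling receptor. The sequences at this branch are shown because the splice reads below count it, with exon bases in capitals, in the short form only its coding bases with the stop codon, and in the kinase form the first 60 of 189 bases of the exon.
Ntrk2 shared donor, chr13:59026047-59026096, plus strand: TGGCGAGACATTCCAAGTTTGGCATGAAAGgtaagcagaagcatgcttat
Ntrk2 short form, chr13:59079817-59079874, plus strand: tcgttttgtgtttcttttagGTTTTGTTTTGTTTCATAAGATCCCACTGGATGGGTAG
Ntrk2 kinase form, chr13:59133596-59133675, plus strand: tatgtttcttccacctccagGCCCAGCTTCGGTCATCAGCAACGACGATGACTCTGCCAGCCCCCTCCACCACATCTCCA

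As a whole gene Ntrk2 was highest in C57BL/6J, with 93.0, 136 and 68.7 CPM on d12, 193, 211 and 239 CPM on d15, and 332, 118 and 199 CPM on d17. AKR/J had 29.4, 55.3 and 36.7 CPM on d12, 76.4, 71.3 and 121 CPM on d15, and 110, 103 and 105 CPM on d17. Cav1-null had 77.4, 79.7 and 70.1 CPM on d12, 95.5, 84.4 and 83.3 CPM on d15, and 126, 151 and 129 CPM on d17. The C57BL/6J d17 libraries were spread more widely than those of both other strains on that day, and neuron markers were spread in the same order there, from 4324 CPM in replicate 2 to 6961 CPM in replicate 1. All d15 libraries of C57BL/6J lay above all d15 libraries of the other strains.

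In the early phase Ntrk2 rose 2.16-fold in AKR/J (log2 fold change 1.11 ± 0.28, adjusted p = 0.0195, alternatives 0.00144 to 0.0786) and 2.11-fold in C57BL/6J (1.08 ± 0.23, adjusted p = 0.0304, alternatives 0.000142 to 0.135). The first call ended without replicate 1 or 3 of d12 or replicate 3 of d15, the other without replicate 1 of d12 or any d15 library and with the replicate block (0.0684). In Cav1-null the early change was 0.24 ± 0.08 and did not pass (adjusted p = 0.0698, alternatives 0.0425 to 0.645, the lowest with library sizes as the only scaling), while the late rise was 1.57-fold (0.66 ± 0.08, adjusted p = 7.47e-05, alternatives 3.93e-13 to 0.202). The late call was lost with all 27 libraries in 1 model (0.202), where the spread of other groups enters. The early change of Cav1-null differed from that of C57BL/6J by -0.87 ± 0.26, which did not pass (adjusted p = 0.221, alternatives 0.0066 to 0.582) but did without replicate 2 of C57BL/6J d12 (-1.16, adjusted p = 0.0066). The late change in AKR/J was 0.29 ± 0.17 (adjusted p = 0.244) and passed without replicate 3 of d15 (0.55, adjusted p = 0.00371), and that in C57BL/6J was 0.05 ± 0.32 (adjusted p = 0.935).

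Against C57BL/6J, Ntrk2 was 2.26-fold lower in AKR/J on d12 (-1.17 ± 0.31, adjusted p = 0.0252, alternatives 0.000368 to 0.104) and 2.33-fold lower on d15 (-1.22 ± 0.18, adjusted p = 0.00168, alternatives 6.69e-11 to 0.0145). The d12 call ended without replicate 1 or 3 of AKR/J or replicate 1 or 2 of C57BL/6J. It was 2.38-fold lower in Cav1-null on d15 (-1.25 ± 0.08, adjusted p = 6.81e-07, alternatives 1.27e-47 to 0.000947). On d12 the Cav1-null difference was -0.37 ± 0.23 (adjusted p = 0.376). On d17 neither difference passed (AKR/J -1.0 ± 0.30, adjusted p = 0.164; Cav1-null -0.62 ± 0.31, adjusted p = 0.575). That of AKR/J passed without the filter on low counts (0.0391), by DESeq2 (0.0321) and with all 27 libraries in 1 model (0.0442). Without replicate 2 of C57BL/6J d17, both passed (-1.25, adjusted p = 0.00529, and -0.90, adjusted p = 0.0287). The 10 astrocyte markers summed on d15 to 374 to 430 CPM in Cav1-null and 515 to 707 CPM in AKR/J against 789 to 937 CPM in C57BL/6J. Single markers differed: Slc1a3 was at 79.6 ± 7.06, 98.9 ± 24.4 and 163 ± 18.5 CPM in that order, and Aqp4 at 4.34 ± 0.433, 5.40 ± 3.57 and 2.75 ± 0.572 CPM. The part of astrocytes in the Ntrk2 differences was not tested.

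The short form was joined by a junction from 59026077 to 59079836 and the full-length form by one from 59026077 to 59133615. Only 10 of the 27 libraries had reads of both, 11 had none of the short junction and 7 none of the full-length one. Of these 7, 5 had reads of the next junction of the kinase form, 59133805 to 59185780, up to 110 reads, so a 0 here does not show that a form was absent. Among the 10 libraries with both, the short form took 97.3% (AKR/J), 77.3% and 76.5% (Cav1-null) of the reads on d12. On d15 it took 64.1%, 66.3% and 76.2% in AKR/J and 65.3% in Cav1-null, and on d17 61.3% and 54.1% in AKR/J and 65.2% in Cav1-null. The means were 83.7% on d12 (n = 3), 68.0% on d15 (n = 4) and 60.2% on d17 (n = 3), and no C57BL/6J library was among them. The share was 23.5 points lower on d17 than on d12 by difference of those means, which an exact two-sided permutation test within strains did not separate (p = 0.1111, the smallest that 9 permutations can give). With a 0 read as no reads in the other libraries, the share fell by 41.2 points (p = 0.025 by the same exact permutation test, adjusted p = 0.05 over 2 sets of junctions, not under the threshold).

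**Figure D4:**
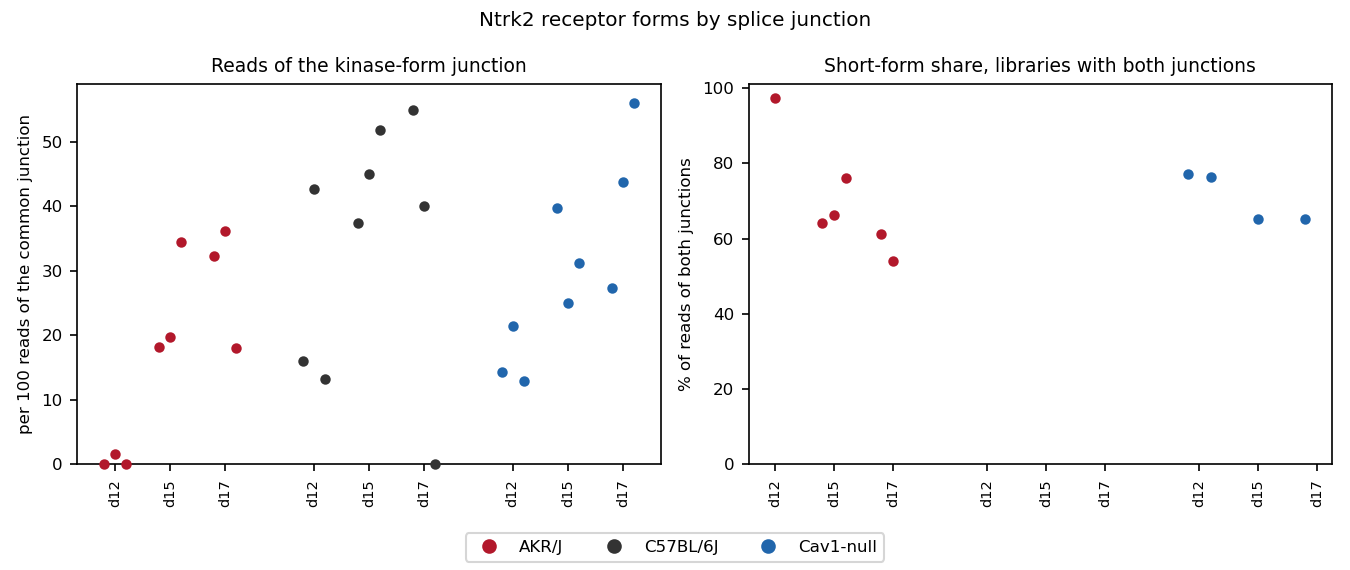
Ntrk2 splice reads in each library (points) by gestational day, coloured by strain: on the left, reads of the kinase-form junction per 100 reads of a junction that both forms share, and on the right, the short form as a percent of the reads of both junctions where both had reads. The mean of the short form is 83.7% on d12 and 60.2% on d17 in the 10 libraries that can be read, which mix the strains differently on each day and were not separated by the test (exact permutation p = 0.1111), and the kinase-form junction is at 0 to 1.67 reads per 100 in AKR/J d12.

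A second reading of the branch sets the kinase-form junction against a junction upstream that both forms share, from 58956755 to 58985609. It was chosen after the zeros had been seen, and is given without a test. AKR/J d12 had 0, 1.67 and 0 kinase-form reads per 100 shared reads, from 23, 60 and 28 shared reads. In AKR/J the ratio was 18.2, 19.8 and 34.5 on d15 and 32.3, 36.3 and 18.1 on d17. C57BL/6J had 16, 42.7 and 13.2 on d12, 37.4, 45.1 and 51.9 on d15, and 54.9, 40 and 0 on d17, where the 0 belongs to a library with 78 reads of the full-length junction. Cav1-null had 14.3, 21.4 and 12.9 on d12, 39.7, 25.0 and 31.3 on d15, and 27.4, 43.8 and 56.1 on d17. Every AKR/J d15 and Cav1-null d15 library was above every d12 library of its own strain.

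Ntrk3 encodes TrkC, the receptor of neurotrophin-3 (7:77825707-78387760, minus strand, ENSMUSG00000059146). AKR/J rose from 28.3, 54.4 and 26.7 CPM on d12 to 159, 135 and 152 CPM on d15 and 223, 223 and 202 CPM on d17, without overlap between days. C57BL/6J had 134, 146 and 72.6 CPM on d12, 226, 253 and 242 CPM on d15, and 286, 272 and 229 CPM on d17. Cav1-null had 122, 122 and 103 CPM on d12, 205, 208 and 225 CPM on d15, and 261, 252 and 247 CPM on d17. The d12 and d15 libraries did not overlap in any strain.

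The early rise of Ntrk3 was 4.0-fold in AKR/J (log2 fold change 2.0 ± 0.28, adjusted p = 0.00262, alternatives 5e-10 to 0.0157) and 1.88-fold in Cav1-null (0.91 ± 0.08, adjusted p = 0.000365, alternatives 2.01e-16 to 0.00638). In C57BL/6J it was 2.0-fold (1.0 ± 0.24, adjusted p = 0.0381, alternatives 0.000618 to 0.14), a call that ended without replicate 1 of d12 or any d15 library and with the replicate block (0.0691). The late rise was 1.49-fold in AKR/J (0.58 ± 0.08, adjusted p = 0.0023, alternatives 2.62e-07 to 0.101) and 1.21-fold in Cav1-null (0.28 ± 0.07, adjusted p = 0.0129, alternatives 0.00163 to 0.566). Both late calls were lost with all 27 libraries in 1 model, and that of Cav1-null also without replicate 1 or 2 of d15. In C57BL/6J the late change was 0.17 ± 0.15 (adjusted p = 0.445). Neuron markers summed to 1760 to 2201 CPM on d12 and 3166 to 4862 CPM on d15 in AKR/J. In C57BL/6J they were at 2884 to 4868 and 5549 to 6128 CPM, and in Cav1-null at 3428 to 4709 and 4604 to 4633 CPM, with overlap. Erythroid sums fell in AKR/J from 34317 to 201683 CPM on d12 to 2038 to 3146 CPM on d15. The part of these markers in the early rises of Ntrk2, Ntrk3 and Gfra1 was not tested.

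On d12 Ntrk3 was 2.97-fold lower in AKR/J than in C57BL/6J (-1.57 ± 0.35, adjusted p = 0.0163, alternatives 2.79e-06 to 0.0729), a call that ended without replicate 1 or 3 of AKR/J or replicate 1 or 2 of C57BL/6J. On d15 it was 1.56-fold lower (-0.64 ± 0.08, adjusted p = 0.000669, alternatives 1.69e-09 to 0.0207) and on d17 the difference was -0.27 ± 0.14 (adjusted p = 0.291). The early change of AKR/J exceeded that of C57BL/6J by 0.95 ± 0.40, which did not pass (adjusted p = 0.265, alternatives 0.0195 to 0.491). It passed without replicate 2 of AKR/J d12 (1.33, adjusted p = 0.0195) and with all 27 libraries in 1 model (1.01, adjusted p = 0.046). Between Cav1-null and C57BL/6J, Ntrk3 differed by -0.01 ± 0.24 on d12, -0.13 ± 0.06 on d15 and -0.01 ± 0.14 on d17, none of which passed (adjusted p 0.992, 0.093 and 0.986). The d15 difference passed without the filter on low counts (-0.17, adjusted p = 0.0458). In AKR/J d12, neuron markers summed to 1760 to 2201 CPM against 2884 to 4868 CPM in C57BL/6J d12, and their part in the Trk receptor differences was not tested.

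Ngfr encodes the p75 neurotrophin receptor (11:95459638-95478561, minus strand, ENSMUSG00000000120), which is also found on neural crest derivatives and mesenchymal cells. C57BL/6J had 17.9, 28.6 and 27.1 CPM on d12, 35.2, 19.3 and 29.8 CPM on d15, and 16.4, 7.03 and 13.5 CPM on d17. AKR/J had 10.1, 11.1 and 13.9 CPM on d12, 7.90, 16.6 and 21.3 CPM on d15, and 5.46, 4.73 and 5.55 CPM on d17. Cav1-null had 11.8, 12.7 and 24.6 CPM on d12, 9.84, 7.05 and 5.98 CPM on d15, and 4.11, 6.42 and 5.50 CPM on d17. In AKR/J and C57BL/6J every d17 library was below every d15 library, and in Cav1-null the d15 libraries were already below all of d12. The highest value, 35.2 CPM, was in the C57BL/6J d15 library with 5219 CPM of meninges and mesenchyme markers, and the highest of Cav1-null d12, 24.6 CPM, was in the library of that group with 1207 CPM of them against 262 and 224 CPM. In C57BL/6J d17 the Ngfr values and the sums of these markers (1390, 188 and 341 CPM) had the same order. In AKR/J d15 the highest Ngfr value, 21.3 CPM, was in the library with the lowest sum of these markers, 158 CPM, and in AKR/J d12 the lowest, 10.1 CPM, was in the library with the highest sum, 1514 CPM. Sensory and autonomic ganglion marker sums had the order of Ngfr in C57BL/6J on each day, AKR/J d15 (92.5, 116 and 170 CPM) and Cav1-null d12. They had another order in AKR/J d12 and d17 and in Cav1-null d15 and d17. In AKR/J d17, where Ngfr was lower than on d15, they were at 53.1 to 67.8 CPM. Their part was not tested.

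Ngfr fell 2.82-fold in AKR/J between d15 and d17 (log2 fold change -1.50 ± 0.32, adjusted p = 0.0136, alternatives 6.57e-06 to 0.0769), a call that ended without replicate 2 or 3 of d17. It fell 2.15-fold in the early phase of Cav1-null (-1.10 ± 0.32, adjusted p = 0.0382, alternatives 0.0006 to 0.151), a call that ended without any one d15 library, with library sizes as the only scaling (0.0539) and with the replicate block (0.0878). The late change in C57BL/6J, -1.16 ± 0.33, just missed the threshold (adjusted p = 0.0564, alternatives 0.00464 to 0.172) and passed by DESeq2 (0.00464), without the filter on low counts, with the replicate block, with all 27 libraries in 1 model, and without replicate 1 of d17. Against C57BL/6J, Ngfr was 1.93-fold lower in AKR/J on d12 (-0.95 ± 0.25, adjusted p = 0.0271, alternatives 0.00842 to 0.11), a call that ended without replicate 1 or 3 of AKR/J or replicate 2 of C57BL/6J. It was 3.59-fold lower in Cav1-null on d15 (-1.84 ± 0.23, adjusted p = 6.76e-05, alternatives 6.29e-20 to 0.000543), and by -1.65 on the log2 scale without replicate 1 of C57BL/6J d15. Meninges and mesenchyme markers were at 398 to 5219 CPM in C57BL/6J d15 and 106 to 218 CPM in Cav1-null d15, and sensory and autonomic ganglion markers at 120 to 154 and 71.1 to 78.1 CPM. Neural crest and Schwann cell markers summed to 333 to 401 CPM in C57BL/6J d15 and 891 to 978 CPM in Cav1-null d15, but Sox10 of that list was at 5.42 ± 1.55 and 2.39 ± 0.649 CPM. The part of these tissues in the Ngfr difference was not tested. On d17 both strains had lower values than any C57BL/6J library, and neither difference passed (AKR/J -1.20 ± 0.28, adjusted p = 0.115; Cav1-null -1.15 ± 0.30, adjusted p = 0.575). That of AKR/J passed with the replicate block (0.0386), by DESeq2 (0.00637) and without the filter on low counts (0.0232). Without replicate 2 of C57BL/6J d17 they were -1.44 (adjusted p = 0.00319) and -1.42 (adjusted p = 0.0237). The late change in Cav1-null was -0.48 ± 0.20 (adjusted p = 0.0934) and passed without the filter (0.033) and without replicate 3 of d15 (0.0473). Over the 8 comparisons of days or strains without a call, Ngfr changed by -1.20 to 0.35.

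Sort1 encodes sortilin, a sorting receptor that carries pro-neurotrophins and forms the pro-neurotrophin receptor with p75 (3:108191285-108268842, plus strand, ENSMUSG00000068747). C57BL/6J had 185, 242 and 163 CPM on d12, 246, 251 and 241 CPM on d15, and 207, 108 and 130 CPM on d17. AKR/J had 71.3, 122 and 78.1 CPM on d12, 148, 110 and 165 CPM on d15, and 127, 124 and 110 CPM on d17. Cav1-null had 138, 126 and 102 CPM on d12, 121, 129 and 119 CPM on d15, and 104, 108 and 99.4 CPM on d17, the narrowest course of the 3 strains. On d12 and d15 all C57BL/6J libraries were above all libraries of both other strains.

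On d15 Sort1 was 1.95-fold lower in Cav1-null (log2 fold change -0.96 ± 0.05, adjusted p = 1.67e-07, alternatives 1.8e-55 to 0.000593) and 1.69-fold lower in AKR/J (-0.76 ± 0.11, adjusted p = 0.00172, alternatives 1.36e-07 to 0.018) than in C57BL/6J. On d12 it was 2.01-fold lower in AKR/J (-1.01 ± 0.26, adjusted p = 0.0242, alternatives 6.5e-05 to 0.0986), a call that ended without replicate 1 or 3 of AKR/J or replicate 1 or 2 of C57BL/6J. In Cav1-null the d12 difference was -0.67 ± 0.19 (adjusted p = 0.114, alternatives 0.0229 to 0.315). It passed by DESeq2, with all 27 libraries in 1 model, and without replicate 3 of C57BL/6J d12 (-0.80, adjusted p = 0.0412). On d17 the differences were -0.29 ± 0.22 in AKR/J (adjusted p = 0.442) and -0.46 ± 0.21 in Cav1-null (adjusted p = 0.575). The latter passed without replicate 2 of C57BL/6J d17 (-0.63, adjusted p = 0.0482). On d15 the neuron markers summed to 5549 to 6128 CPM in C57BL/6J, 4604 to 4633 CPM in Cav1-null and 3166 to 4862 CPM in AKR/J, and the progenitor markers to 1784 to 2045, 829 to 851 and 1336 to 1697 CPM, and their part in the Sort1 differences was not tested.

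Between days, Sort1 fell in the late phase of Cav1-null by 0.21 on the log2 scale (SE 0.07, adjusted p = 0.0361, alternatives 0.0221 to 0.639). That call ended without replicate 1 or 2 of d15 or replicate 3 of d17, with the replicate block (0.068), without the filter on low counts (0.0515), and with all 27 libraries in 1 model (0.639). In C57BL/6J the late change was -0.69 ± 0.23 (adjusted p = 0.0814, alternatives 0.00229 to 0.248), and it passed by DESeq2 (0.0249), with all 27 libraries in 1 model (0.0095) and without replicate 1 of d17, whose 207 CPM stood above the other two libraries (-0.99, adjusted p = 0.00229). In AKR/J the early change of 0.61 ± 0.24 did not pass (adjusted p = 0.0928), but passed with all 27 libraries in 1 model (0.66, adjusted p = 0.0104) and without replicate 2 of d12 (0.85, adjusted p = 0.00538). The late change there was -0.19 ± 0.12 (adjusted p = 0.321) and passed without replicate 2 of d15 (-0.32, adjusted p = 0.0339). The early change in C57BL/6J was 0.29 ± 0.14 (adjusted p = 0.195) and passed without replicate 2 of d12 (0.46, adjusted p = 0.0148), and that in Cav1-null was 0.04 ± 0.10 (adjusted p = 0.821).

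Gfra1 encodes the GDNF co-receptor (19:58223212-58444346, minus strand, ENSMUSG00000025089). C57BL/6J had 28.4, 53.2 and 44.6 CPM on d12, 44.4, 44.6 and 51.7 CPM on d15, and 41.0, 18.1 and 28.3 CPM on d17. AKR/J had 9.41, 12.3 and 20.4 CPM on d12, 24.3, 22.8 and 47.1 CPM on d15, and 20.2, 15.7 and 19.8 CPM on d17. Cav1-null had 21.5, 28.3 and 37.9 CPM on d12, 22.9, 20.8 and 17.9 CPM on d15, and 20.5, 25.6 and 21.3 CPM on d17. On d15 the Cav1-null libraries were all below the C57BL/6J ones, and replicate 3 of AKR/J lay within them.

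Gfra1 rose 2.18-fold in AKR/J between d12 and d15 (log2 fold change 1.12 ± 0.36, adjusted p = 0.0474, alternatives 0.0034 to 0.182). The call ended without replicate 1 or 2 of d12 or replicate 1 or 3 of d15, and with DESeq2's size factors in edgeR (0.0567). On d12 it was 2.76-fold lower in AKR/J than in C57BL/6J (-1.46 ± 0.34, adjusted p = 0.0175, alternatives 0.000164 to 0.0781), a call that ended without replicate 1 of AKR/J or replicate 2 of C57BL/6J. On d15 the AKR/J difference was -0.55 ± 0.24 and did not pass (adjusted p = 0.113, alternatives 0.000665 to 0.336), but passed with the replicate block (-0.61, adjusted p = 0.0372), by DESeq2 (-0.58, adjusted p = 0.0356) and without replicate 3 of AKR/J (-0.95, adjusted p = 0.000665). In Cav1-null on d15 it was 2.22-fold lower (-1.15 ± 0.10, adjusted p = 4.39e-06, alternatives 1.56e-24 to 0.00388), beside the lower sums of ganglion markers (71.1 to 78.1 against 120 to 154 CPM) and of meninges and mesenchyme markers (106 to 218 against 398 to 5219 CPM), whose part was not tested. Without replicate 2 of C57BL/6J d17, Gfra1 was also lower in AKR/J on d17 (-0.83, adjusted p = 0.0133), where all libraries gave -0.63 ± 0.26 (adjusted p = 0.223).

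In the late phase the Gfra1 change in AKR/J was -0.70 ± 0.25 (adjusted p = 0.0783). It passed without the filter on low counts (0.0207), with the replicate block (0.0461), by DESeq2 (0.013) and without replicate 2 of d15 (0.0246). In C57BL/6J it was -0.65 ± 0.26 (adjusted p = 0.124) and passed without replicate 1 of d17 (-0.96, adjusted p = 0.0107). The early change of Cav1-null was -0.50 ± 0.21 (adjusted p = 0.126) and passed by DESeq2 (0.0459) and without replicate 1 of d12 (0.0415). In the 9 comparisons of days or strains without a call, the Gfra1 change ran from -0.70 to 0.16. A pair of Gfra1 first exons shared 1 splice site, and the share of one of them was 11 points higher on d17 than on d12, which did not pass (p = 0.3133 by exact permutation within strains, 16 to 103 reads in a group).

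Whether the strains differed in the change itself was tested by interaction terms over 12 libraries each. For AKR/J against C57BL/6J, 0 of 8 genes were called in the early phase (0.0711% of all genes) and 0 of 8 in the late phase (0.00468%). For Cav1-null against C57BL/6J, 0 of 8 were called in the early phase (0.00472%) and 0 of 8 in the late phase (0.252%). The genes of the 8 with an unadjusted p under 0.05 numbered 3, 1, 2 and 3 in that order. Among all genes these were 3432 of 21090, 1617 of 21373, 3181 of 21191 and 4683 of 21431. DESeq2 called 0, 0, 0 and 1 of the 8 (4.75%, 0.159%, 3.16% and 6.05% of all genes). Without replicate 1 of C57BL/6J d17, edgeR called 4 genes in the late phase of Cav1-null, with differences of -0.89 for Bdnf, 1.10 for Ntrk2, 0.83 for Sort1 and 1.18 for Gfra1, in a fit that called 26.1% of all genes. Gfra1 also passed there without the filter on low counts (0.87, adjusted p = 0.0497). That library had the highest Ntrk2, Sort1 and Gfra1 levels of its group and 1390 CPM of meninges and mesenchyme markers. Without the same library, Sort1 passed in AKR/J between d15 and d17 (0.83, adjusted p = 0.0294).

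The other genes of the system were taken from 8 lists with 106 genes, of which 97 or more were tested in each comparison. Between days the calls were mostly higher on the later day in AKR/J between d12 and d15 (36 higher and 3 lower of 100, against 14.8% and 14.0% of all genes). In the late phase of Cav1-null they were 36 higher and 11 lower of 98 (14.5% and 12.8% of all genes). AKR/J gave 15 higher and 12 lower of 98 in the late phase (11.6% and 10.4% of all genes), and Cav1-null 20 and 14 of 98 in the early phase (11.6% and 11.8%). C57BL/6J gave 12 and 4 of 99 in the early phase (7.08% and 7.8% of all genes). In its late phase the 5 and 4 of 100, or 9.0% of the list genes, were below the 13.0% called among all genes. On d17, in Cav1-null on d12 and in the interactions, edgeR called 0 of the list genes. Against C57BL/6J the calls were mostly lower, with 3 higher and 33 lower of 99 in AKR/J on d12 (14.5% and 14.1% of all genes), 5 and 51 of 100 on d15 (18.8% and 22.3%), and 9 and 63 of 99 in Cav1-null on d15 (26.8% and 31.8%). The median log2 fold change of the lists in Cav1-null on d15 ran from -0.23 to -1.18, where that of all genes was 0.03. These lists were described and not tested as sets, and were counted with TMM scaling only. With library sizes as the only scaling, the share of all calls that were higher moved from 51.4% to 74.7% in AKR/J between d12 and d15, from 50.6% to 30.2% in AKR/J on d12, from 45.7% to 62.8% in AKR/J on d15 and from 45.7% to 59.2% in Cav1-null on d15.

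Sorl1, Sorcs1, Sorcs2 and Sorcs3 encode sorting receptors of the sortilin family. All 4 were called higher on d15 than on d12 in AKR/J (log2 fold change 1.36, 1.48, 1.07 and 1.80), where 28.9% of all genes were called. All 4 were called lower in Cav1-null than in C57BL/6J on d15 (-1.22, -0.41, -1.96 and -1.08, with 58.6% of all genes called). Of the 4, 3 were lower in AKR/J on d12 (28.6% of all genes called) and on d15 (41.1%), Sorcs2 being the exception on d15 (-0.21, adjusted p = 0.126). In the early phase 1 of 4 was higher in C57BL/6J (14.9% of all genes called), and 1 was higher and 1 lower in Cav1-null (23.4%). In the late phase 2 were higher in Cav1-null (27.3% of all genes called), and 0 of 4 were called in AKR/J (22.1%) and in C57BL/6J (13.0%). The GDNF receptor kinase Ret rose in the early phase from 1.24 ± 0.638 to 8.43 ± 2.99 CPM in AKR/J (2.73 ± 0.50, adjusted p = 0.0066). In C57BL/6J Ret rose from 6.06 ± 3.25 to 18.7 ± 6.32 CPM (1.59 ± 0.41, adjusted p = 0.043), a call that ended without any one library other than replicate 2 of d12 and with the replicate block (0.0823). Ntf5, another neurotrophin ligand, was low, at 0 to 2.12 CPM. Lingo1 and Lingo2, the former a partner of p75, also rose in AKR/J between d12 and d15 (2.34 ± 0.34 and 2.64 ± 0.27).

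Among enzymes that process pro-neurotrophins, Mmp9, a matrix metalloproteinase, was lower in both strains than in C57BL/6J. It was at 28.3 ± 2.80 CPM in C57BL/6J d15, 2.80 ± 1.11 CPM in AKR/J d15 (-3.29 ± 0.30, adjusted p = 0.000315) and 2.84 ± 0.355 CPM in Cav1-null d15 (-3.28 ± 0.14, adjusted p = 4.05e-08). Mmp2 (-2.66 ± 0.45) and the proprotein convertase gene Pcsk6 (-2.03 ± 0.26) were also lower in Cav1-null on d15. Mmp2 was at 30.7 ± 23.1 CPM in C57BL/6J d15, the group with 398 to 5219 CPM of meninges and mesenchyme markers, and without its replicate 1 the Mmp2 difference was -1.84. The part of those markers was not tested. In that comparison 10 of 13 processing genes were lower and 1 higher, where 31.8% of all genes were lower and 26.8% higher. Of the genes known to be induced by BDNF or GDNF, Vgf, which encodes a secreted neuropeptide precursor, was at 18.9 ± 0.400 CPM in C57BL/6J d15 and 3.73 ± 0.804 CPM in AKR/J d15 (-2.30 ± 0.16, adjusted p = 0.000161). In Cav1-null d15 Vgf was at 4.50 ± 0.637 CPM. Dusp4, a phosphatase that acts on MAP kinases, was at 164 ± 17.6 CPM in C57BL/6J d15 and 51.2 ± 21.7 CPM in AKR/J d15 (-1.65 ± 0.25, adjusted p = 0.00173). On d12 Mmp9 (-3.97 ± 0.87), Vgf (-3.45 ± 0.71) and Dusp4 (-2.60 ± 0.38) were lower in AKR/J as well, and all 3 calls ended without replicate 2 of C57BL/6J, those of Mmp9 and Vgf also without replicate 3 of AKR/J, and that of Mmp9 also without replicate 1 of AKR/J. Vgf rose in AKR/J between d15 and d17 (1.48 ± 0.22) and likewise in Cav1-null (1.61 ± 0.15), with Npy (1.04 ± 0.14) and Spry4 (1.03 ± 0.19) in the latter, of which the Npy call was lost with all 27 libraries in 1 model (0.233). Vgf had also been called higher in the early phase of Cav1-null (1.385 ± 0.239, adjusted p = 0.00448). Mef2c, a transcription factor that acts on Bdnf, rose in the early phase of C57BL/6J (1.77 ± 0.24) and Cav1-null (1.75 ± 0.11) and in AKR/J between d15 and d17 (1.80 ± 0.23). Grb10, an adaptor of receptor tyrosine kinases, fell by 1.61 on the log2 scale in the early phase of Cav1-null and by 1.48 and 1.39 in AKR/J and C57BL/6J between d15 and d17. The early calls of Vgf (2.07 ± 0.43) and Mef2c in C57BL/6J and its late calls of Grb10, Etv4 (1.21 ± 0.20) and Mmp14 (-1.45 ± 0.38) ended without 1 or more single libraries, with adjusted p up to 0.181. Those of Vgf and Mef2c also ended with the replicate block (both 0.0672).

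As a description over the 27 libraries, which share strains and days and differ in tissue makeup, genes whose log2(CPM + 1) followed a member closely were taken from about 12517 genes. For Bdnf the closest was Rab27b (Pearson r = 0.92), and for Ntf3 they were Gyg (0.91) and AI413582 (0.89). For Gdnf they were Mcc and Pgm5 (both 0.78). The closest to Ntrk2 was Epb41l1 (0.98), to Ntrk3 they were Dmxl2 and Shisa7 (both 0.99), to Ngfr Fbxl7 (0.95) and Apcdd1 (0.94), to Sort1 Smarcc2 and Bcl9 (0.985 and 0.984), and to Gfra1 Nefm and Esrrb (both 0.93). Among the 8 genes themselves, r was highest for Ntrk2 with Ntrk3 (0.83), Sort1 with Gfra1 (0.79), Bdnf with Ntf3 (0.76) and Ngfr with Gfra1 (0.75), and lowest for Sort1 with Ntf3 (-0.65) and Ngfr with Bdnf (-0.62).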

How the data were processed

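Whole fetal brain RNA was sequenced in 27 poly(A) libraries. The authors checked reads with FastQC, trimmed them with cutadapt and fastp (Phred above 30) and mapped them with STAR to GRCm39 with Ensembl release 110. The deposited gene table holds whole read counts per gene without normalization, and 0 of its sample columns were left unused. The counting tool, its strand handling and all versions are not given in the sources used here, so reads of overlapping genes on opposite strands may not be separated. The splice table deposited by the authors holds counts of reads per junction, without junctions that had multi-mapped reads, overhangs under 20 bases or fewer than 10 reads in all the samples. A single library could hold fewer than 10 reads of a junction that was kept.

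Each comparison was fitted on its own 6 libraries (12 for interactions) in R 4.3.3 with edgeR 4.0.16, using filterByExpr, TMM and the quasi-likelihood test, with Benjamini-Hochberg adjustment over all genes tested and a threshold of 0.05. Standard errors were derived from the log2 fold change and the F statistic (their ratio after taking the root of F). CPM used TMM factors over all 27 libraries. Junction shares were compared between d12 and d17 by exact two-sided permutation of days within strains, for sets whose junctions averaged at least 5 reads. Alternatives were DESeq2 1.42.0, its size factors in edgeR, library sizes alone, no filter, a replicate block, all 27 libraries in 1 model, each library left out, other junction minimums and, added after the data were seen, only libraries with reads of both Ntrk2 junctions. No pair of libraries within a group held identical counts. Sequences and exons came from GRCm39 and GENCODE release M39, read with pysam 0.24.0, and the 8 genes matched by Ensembl identifier. On simulated counts, the test recovered 82 to 100 of 100 genes changed 4-fold and 14 to 94 of 100 changed 2-fold, over the 16 comparisons, with 2 to 14 false calls. The changed genes were drawn from genes with higher mean counts than Gdnf, or than Ntf3 in C57BL/6J d12 and d15. Spread was simulated from the trend over genes, without libraries that stand apart. The recovery therefore does not extend to such low counts or libraries. The genes, the lists and the rule for named genes were chosen with earlier results of these data known. All 8 genes were counted and plotted in the day and strain comparisons and counted in the interactions, and those without a call are in part given by their range. From the lists, at most 3 called genes per comparison were named, those with the largest changes among genes whose average log2 CPM reached 1, and the sortilin relatives and Ntf5 were added after their values were seen. Some results on single genes and 1 exon are not reported here. Same-numbered libraries deviated together in every pair (r 0.149 to 0.401) only for AKR/J against C57BL/6J on d12, where the replicate block left the count at 6, and no label ties the numbers to a litter or day.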

Additional observations from a re-analysis of the deposited data

How the results depend on the processing

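Over the 16 comparisons, 33 calls were made on the 8 genes, of which 12 passed in every alternative that was run, and no called value changed sign. With all 27 libraries in 1 model the number of genes called became 5 in AKR/J between d12 and d15, 4 in the late phase of C57BL/6J, 0 in the late phase of Cav1-null, 1 in AKR/J on d17, 1 in Cav1-null on d12 and 1 for the early interaction of AKR/J. With the replicate block it became 0 in the early phase of C57BL/6J, 1 in the early phase of Cav1-null and 1 in AKR/J on d17; in the other comparisons it stayed within 1.5 times. DESeq2 called 4 in the late phase of C57BL/6J (18.2% of all genes), 2 in AKR/J on d17 (5.82%), 1 in Cav1-null on d12 (12.7%) and 1 for the late interaction of Cav1-null (6.05%). Without the filter on low counts the counts were 2 in AKR/J on d17 and 1 for the late interaction of Cav1-null. The share of all genes called is not given here for the 27-library model, the replicate block and the unfiltered fit. Their counts are not read as particular to the 8 genes. The 2 other scalings moved no count past 1.5 times. Leaving out 1 library at a time gave 1 to 4 genes in the early and 2 to 6 in the late phase of AKR/J, 0 to 3 and 1 to 5 in C57BL/6J, and 1 to 3 and 2 to 5 in Cav1-null. Those fits called 12.4% to 43.5% and 7.58% to 23.3% of all genes in AKR/J. In C57BL/6J they called 0.0% to 29.8% and 0.767% to 33.2%, and in Cav1-null 11.2% to 35.9% and 18.9% to 25.5%. Against C57BL/6J, leaving out 1 library gave 0 to 6, 3 to 4 and 0 to 3 in AKR/J and 0 to 1, 6 to 7 and 0 to 3 in Cav1-null on d12, d15 and d17, and 0 to 2, 0 to 1, 0 to 1 and 0 to 4 for the interactions. The shares of all genes called were 0.122% to 39.9%, 28.2% to 37.9% and 0.258% to 26.4% in AKR/J. In Cav1-null they were 0.0% to 7.37%, 49.8% to 53.7% and 0.00946% to 13.6%. For the interactions they were 0.0135% to 14.8%, 0.00449% to 3.7%, 0.00451% to 7.3% and 0.0% to 26.1%. The counts are therefore not read as particular to the 8 genes. A minimum of 20 reads for junctions left only the Ntrk2 set, so that 1 set passed in place of 0. The causes of these moves were not tested, apart from the fewer sets adjusted for in the last. With library sizes as the only scaling, the median change over all genes (log2) went from 0.02 to 0.46 in AKR/J between d12 and d15, from 0.02 to -0.38 in AKR/J on d12, from 0.06 to 0.23 in AKR/J on d15, from 0.03 to 0.21 in Cav1-null on d15 and from 0.03 to 0.17 in the late phase of C57BL/6J. The largest shift was in the early interaction of AKR/J, from 0.03 to 0.58, where the calls among all genes went from 15 to 107. Each group had 3 libraries, Gdnf had 0 to 46 reads in a library, and zeros in the junction table may stand for removed reads.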
